A study of Mus musculus with 14 samples.

Results

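10 genes that identify macrophages or describe their state were followed in the colon of mice with and without the glucocorticoid receptor (GR) in the intestinal epithelium. The genes were chosen by name, through the RefSeq accession of each array probe, and are 10 of 19096 genes that the array's probes name. They were grouped by their usual roles. Adgre1, Cd68 and Csf1r mark macrophages in general, Cx3cr1, Mrc1 and Cd163 are commonly read as markers of resident cells, and Arg1, Marco, Msr1 and Trem2 are commonly read as markers of recruited or alternatively activated cells. All 10 had a probe that passed the filter on dim spots, as did 15540 genes in all.

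Total RNA of whole colon was hybridised to single-colour Agilent mouse arrays, with 1 mouse per array. All mice were female C57BL/6 of 4 to 6 months on chow. GR iKO mice carried floxed GR alleles (GR fl/fl, gene Nr3c1) and Villin-cre, which deletes the gene constitutively in the intestinal epithelium. Flox mice carried the same floxed alleles without Cre. Mice drank regular water (4 Flox and 4 GR iKO) or 2.5% dextran sodium sulfate (DSS), which damages the epithelial lining and so brings on colitis, for 7 days (3 Flox and 3 GR iKO). Villin-cre is an epithelial driver, so macrophages are not the cells it targets.

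The colon wall holds one of the body's largest macrophage populations. In adult mice these cells are largely replaced by blood monocytes, which mature over days from inflammatory cells into Cx3cr1-high resident cells that take up debris and bacteria. During colitis, monocytes enter in large numbers and much of the population is made of cells that have not finished this maturation. Markers of alternative activation overlap with both states, so that Mrc1 and Cd163 mark mature resident cells as well as cells exposed to interleukin signals or glucocorticoids.

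PU.1, the factor that directs macrophage development, binds sites with the core GAGGAA, and AP-1, a factor induced by stress and inflammatory signals, binds TGANTCA. The 250 bases before the annotated start were available from RefSeq (GRCm38.p6) for 6 of the 10 genes and were searched on both strands for these 2 motifs and for TTGCNNAA (C/EBP) and TTCNNNGAA (STAT). The 3 windows printed below belong to a scavenger receptor, a pan-macrophage marker, and the only member with a lower mean on DSS. The scavenger receptor, Marco, was chosen for a difference between DSS-treated genotypes that passed the test in only some of the fits. Its difference between genotypes on water did not pass. Each window is given 5′ to 3′ on the gene's strand, with matches in capitals. The Marco window is chr1:120505025-120505274 (minus strand), the Cd68 window chr11:69666171-69666420 (minus strand) and the Cx3cr1 window chr9:120068297-120068546 (minus strand).
Marco: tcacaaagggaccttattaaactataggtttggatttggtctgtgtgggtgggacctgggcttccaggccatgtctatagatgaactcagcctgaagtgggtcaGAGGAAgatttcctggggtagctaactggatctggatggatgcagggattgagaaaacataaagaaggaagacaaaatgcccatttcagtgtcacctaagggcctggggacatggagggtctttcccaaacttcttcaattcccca
Cd68: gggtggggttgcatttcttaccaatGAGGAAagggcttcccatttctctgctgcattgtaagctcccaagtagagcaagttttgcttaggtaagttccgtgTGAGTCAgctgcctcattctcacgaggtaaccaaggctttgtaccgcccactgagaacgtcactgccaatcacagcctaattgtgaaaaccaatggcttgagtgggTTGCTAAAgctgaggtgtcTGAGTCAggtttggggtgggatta
Cx3cr1: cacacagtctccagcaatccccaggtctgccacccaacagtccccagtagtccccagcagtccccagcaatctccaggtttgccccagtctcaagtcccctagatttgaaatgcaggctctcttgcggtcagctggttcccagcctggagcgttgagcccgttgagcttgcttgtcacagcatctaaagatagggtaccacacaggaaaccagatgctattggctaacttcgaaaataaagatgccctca

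The Marco window held 1 PU.1 core, 146 bases before the start. The Cd68 window held 1 PU.1 core, 2 AP-1 matches and 1 C/EBP match, the nearest AP-1 match 24 bases before the start. The Cx3cr1 window held none of the 4 motifs. Of the other windows, Mrc1 had 3 PU.1 cores, Trem2 had 1 PU.1 core and an AP-1 match 9 bases before the start, and Cd163 had none. Over all 32851 RefSeq windows of this length, 23.3% held a PU.1 core, 6.75% an AP-1 match, 9.56% a C/EBP match and 7.02% a STAT match, with no motif overlapping another in the windows printed. A match is only a run of letters and was not tied to binding.

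Levels are given as log2 intensity relative to the 75th percentile of the same array, so that 0 is the level of that percentile and 1 unit is a doubling. They can be compared between arrays for one probe, not between probes. Each comparison was tested with limma over the 29523 probes that 3 or more of the 14 arrays read well above background. P-values were adjusted by Benjamini-Hochberg, with 0.05 as the threshold for a call. The target of the deletion was checked first. The brightest Nr3c1 probe was at 57.3% of the Flox level in GR iKO colon on water (two-sided exact permutation p = 0.0286) and at 56.1% on DSS (exact p = 0.1, the smallest that 3 against 3 arrays allow). The arrays' 75th percentiles ran from 262 to 1003 intensity units, the lowest being Flox DSS replicate 4, and 62.6% to 71.2% of probes were well above background. Over the tested probes the median within-group SD was 0.18 and 0.17 on water (Flox and GR iKO) against 0.26 and 0.34 on DSS, so the DSS arrays varied more.

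DSS treatment raised 8 of the 10 genes in each genotype. In Flox colon, all 4 recruited or alternative markers were called higher, together with Cd68, Csf1r, Mrc1 and Cd163, where 24.4% of all tested probes were called higher and 28.2% lower. In GR iKO colon the count was again 8 higher and 0 lower, against 22% of probes higher and 22.5% lower. Adgre1 and Cx3cr1 were the members not called in either genotype. The median log2 change was 2.35 in Flox and 3.16 in GR iKO over the recruited or alternative markers, 1.60 and 1.03 over the resident markers, and 0.72 and 1.16 over the general markers, beside -0.09 and -0.02 over all tested probes. These directions hold relative to the bulk of probes: scaled to the labelling spike-ins, the median of all probes moved by -2.40 in Flox and -0.95 in GR iKO, and 7 members in Flox and 1 in GR iKO took the opposite sign. No member was called higher in Flox under that scaling. The cause of the shift against the spike-ins was not tested. Whole colon was measured, so a change in the number of cells of a type and a change in RNA per cell cannot be told apart.

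**Figure D1:**
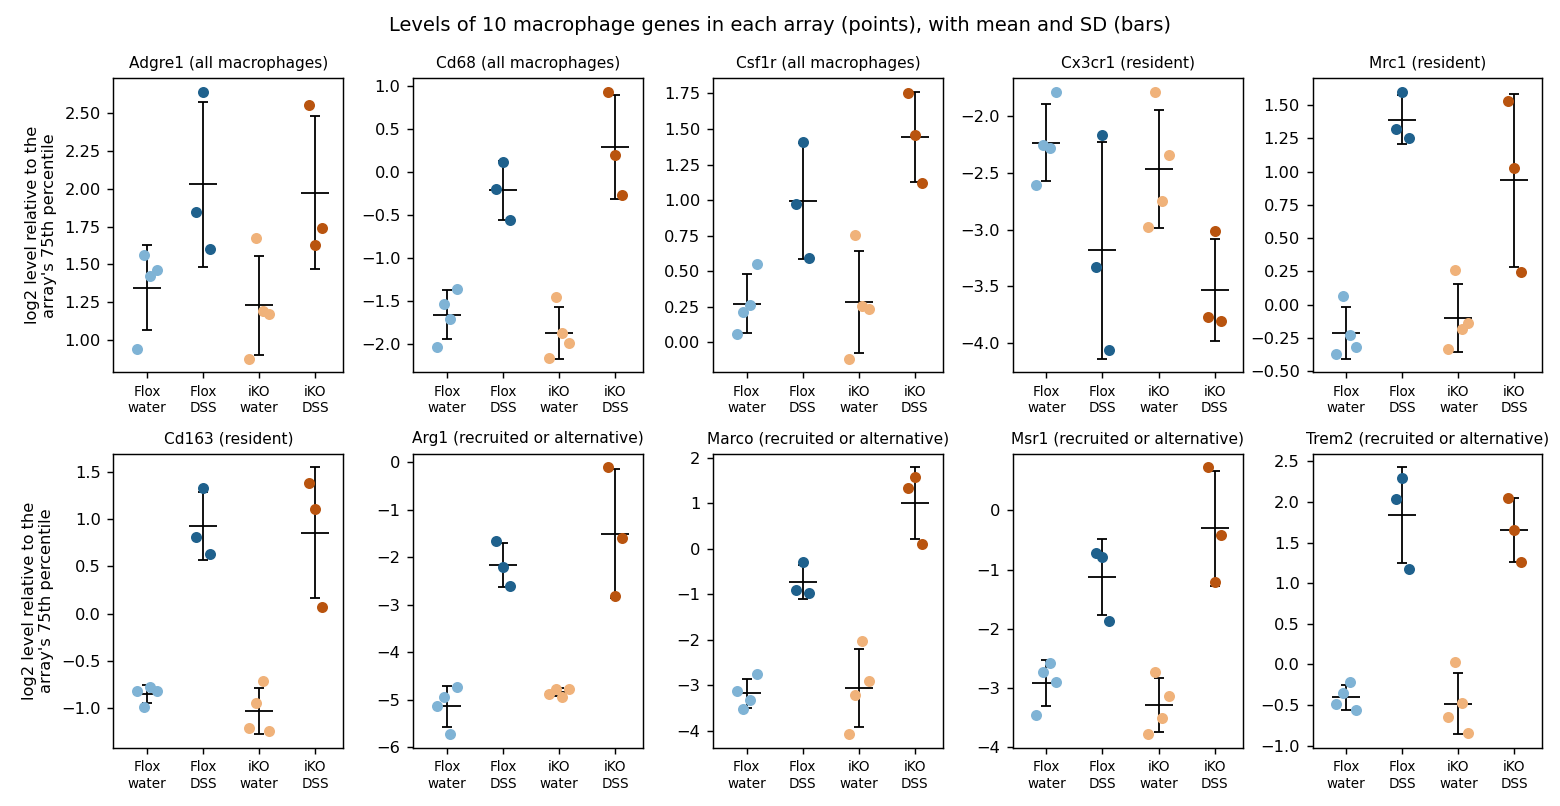
Log2 level relative to the array's 75th percentile (vertical axis, own scale per gene) of the 10 genes in the 4 groups, with 1 point per array and bars for mean and SD. The DSS arrays stand clear of the water arrays of their genotype for Cd68, Csf1r, Cd163, Arg1, Marco, Msr1 and Trem2, whereas Adgre1 and Cx3cr1 overlap in 1 genotype each.

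Among the general markers, Adgre1, the adhesion receptor recognised by the F4/80 antibody, had the smallest changes on its bright probe. Its levels in Flox colon were 0.94, 1.56, 1.42 and 1.47 on water and 1.85, 2.64 and 1.60 on DSS. In GR iKO colon they were 0.88, 1.67, 1.20 and 1.17 on water and 2.55, 1.63 and 1.74 on DSS. The 3 Flox DSS arrays lay above all 4 on water, the lowest by a narrow margin, while in GR iKO replicate 3 on DSS fell inside the range on water. The log2 change was 0.68 (95% interval 0.05 to 1.32) in Flox and 0.75 (0.11 to 1.38) in GR iKO, with adjusted p of 0.066 and 0.0542. A second, dim Adgre1 probe was called in both genotypes (adjusted p = 0.039 and 0.0464), but it was well above background on only 1 of 4 and 1 of 3 arrays in Flox and on 0 of 4 and 3 of 3 in GR iKO, where the measured rise was at least 1.37-fold. The call on the bright probe turned with the processing. It was called in 6 of 27 alternatives in Flox, once lower (spike-in scaling), and in 10 of 27 in GR iKO, among them the fit with slide as a block in both (adjusted p = 0.0323 and 0.0143).

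Cd68, a lysosomal glycoprotein of phagocytes, rose in both genotypes. It stood at -2.03, -1.53, -1.71 and -1.36 in Flox on water and at -0.20, 0.12 and -0.56 on DSS. In GR iKO it stood at -2.16, -1.46, -1.87 and -1.99 on water and at 0.93, 0.20 and -0.27 on DSS. No DSS array came within the range of its water group. The log2 changes were 1.44 ± 0.28 (SE) and 2.16 ± 0.28, with adjusted p of 9.21e-04 and 8.39e-05. Csf1r, the receptor for the growth factors that keep macrophages alive, rose by 0.72 ± 0.24 in Flox, with an adjusted p of 0.0223, and by 1.16 ± 0.24 in GR iKO, with an adjusted p of 0.00184. Its bright probe read 0.05 to 0.55 on water and 0.59 to 1.41 on DSS in Flox, and -0.12 to 0.76 on water and 1.12 to 1.76 on DSS in GR iKO. A second bright Csf1r probe was also called in both (0.77 and 1.11), and another, dim one in neither. The Flox call of Csf1r was lost without Flox water replicate 1 (adjusted p = 0.0574), without Flox DSS replicate 1 (0.0536) and without Flox DSS replicate 2 (0.112), as it was when water and DSS arrays were weighted separately (0.0559) and when the gene's probes were averaged (0.43, adjusted p = 0.0955). Under spike-in scaling the Flox change of Csf1r was called in the opposite direction (-1.60, adjusted p = 0.00277).

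Of the resident markers, Cx3cr1 went the other way from the rest. This chemokine receptor, which binds fractalkine, is low on incoming monocytes of the Ly6c-high kind and high on mature colonic macrophages. Its levels in Flox were -2.61, -2.26, -2.28 and -1.78 on water and -3.33, -2.16 and -4.06 on DSS. In GR iKO they were -2.98, -1.78, -2.74 and -2.35 on water and -3.78, -3.01 and -3.81 on DSS. The GR iKO DSS arrays all lay below those on water by a narrow margin, and Flox DSS replicate 2 lay inside the water range. The log2 changes of -0.95 (-1.84 to -0.06) and -1.07 (-1.96 to -0.18) were not called (adjusted p = 0.0684 and 0.0505). Without Flox DSS replicate 2 the Flox change was -1.46 and was called (adjusted p = 0.00677), and with normexp background correction it was -0.04. Cx3cr1 was called lower in 5 of 27 alternatives in Flox and in 10 of 27 in GR iKO. Among them was the deposited value table in both genotypes (limma adjusted p = 0.0454 and 0.0426). A second Cx3cr1 probe was well above background on no array.

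Mrc1, the mannose receptor CD206, rose with DSS. In Flox it went from -0.37, 0.06, -0.23 and -0.32 on water to 1.32, 1.60 and 1.25 on DSS, with the smallest SD of any member's bright probe in that group (0.19). In GR iKO it read -0.33, 0.26, -0.19 and -0.14 on water and 1.53, 1.03 and 0.24 on DSS. The 3 Flox DSS arrays were well clear of the water arrays, while GR iKO DSS replicate 4 did not rise above the highest GR iKO array on water. The log2 changes were 1.60 ± 0.25 (adjusted p = 2.38e-04) and 1.03 ± 0.25 (adjusted p = 0.00564).

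Cd163, the receptor that clears haptoglobin-bound hemoglobin, behaved alike in the DSS groups. Flox arrays read -0.81, -0.99, -0.77 and -0.82 on water and 0.81, 1.33 and 0.63 on DSS, and GR iKO arrays -1.21, -0.95, -0.72 and -1.25 on water and 1.39, 1.11 and 0.07 on DSS. No DSS array overlapped its water group. The log2 changes were 1.77 ± 0.27 (adjusted p = 1.95e-04) and 1.89 ± 0.27 (adjusted p = 1.89e-04). Thus 2 of the 3 resident markers rose while Cx3cr1 had lower means in both genotypes.

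The recruited or alternative markers all rose in both genotypes relative to the 75th percentile. In Flox under spike-in scaling, Msr1 and Trem2 had negative changes. Arg1 (0.66, adjusted p = 0.281) and Marco (0.14, adjusted p = 0.812) were not called there. Arg1, the arginase that turns arginine into ornithine, was close to background on water, where it read -5.14, -4.94, -5.73 and -4.73 in Flox (well above background on 3 of 4 arrays) and -4.89, -4.77, -4.95 and -4.78 in GR iKO. On DSS it read -1.67, -2.21 and -2.60 in Flox and -0.11, -2.82 and -1.59 in GR iKO. Every DSS array was above every water array, and the GR iKO DSS arrays spread most widely of any member (SD 1.36). The changes were 2.98 ± 0.48 in Flox (7.87-fold) and 3.34 ± 0.48 in GR iKO (10.1-fold), with adjusted p of 2.76e-04 and 1.83e-04.

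Marco, a class A scavenger receptor for bacteria and particles, had the largest change of the 10 genes in GR iKO. In Flox it read -3.12, -3.52, -3.32 and -2.75 on water and -0.91, -0.29 and -0.97 on DSS. In GR iKO it read -4.08, -3.21, -2.02 and -2.91 on water and 1.34, 1.57 and 0.12 on DSS. All DSS arrays stood above all water arrays, and the GR iKO DSS arrays stood above the Flox DSS arrays. The log2 change was 2.45 ± 0.44 in Flox (5.48-fold, adjusted p = 6.04e-04) and 4.06 ± 0.44 in GR iKO (16.7-fold, adjusted p = 2.79e-05).

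Msr1, the founding class A scavenger receptor, and Trem2, a lipid-sensing receptor that signals through Tyrobp, were called in both genotypes with every probe. Msr1 read -3.45, -2.72, -2.58 and -2.89 in Flox on water against -0.72, -0.79 and -1.86 on DSS, and -3.78, -2.73, -3.50 and -3.13 in GR iKO on water against 0.73, -1.20 and -0.42 on DSS. Its 3 probes rose by 1.55 to 1.81 in Flox and by 2.48 to 2.99 in GR iKO. Trem2 read -0.48, -0.35, -0.22 and -0.57 in Flox on water against 2.04, 2.30 and 1.18 on DSS, and -0.65, 0.03, -0.48 and -0.85 in GR iKO on water against 2.05, 1.65 and 1.26 on DSS. Its 2 probes gave 2.24 and 2.34 in Flox and 2.14 and 2.15 in GR iKO. For both genes the DSS and water arrays did not overlap.

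**Figure D2:**
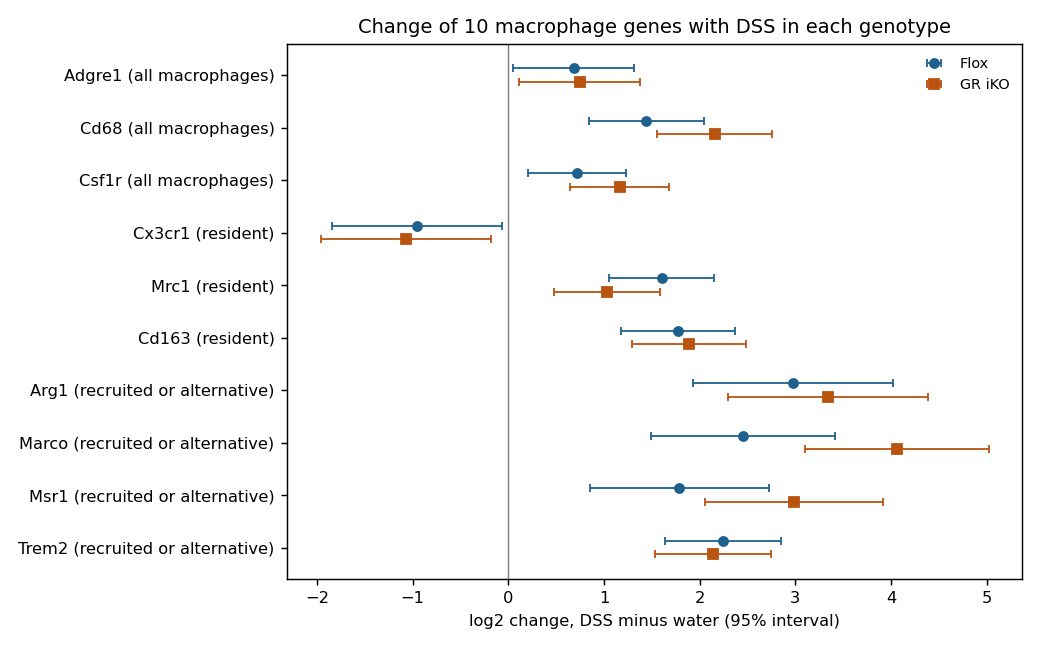
Log2 change with DSS (horizontal axis, DSS minus water, with 95% interval) of each gene in Flox (circles) and GR iKO (squares), ordered by role. The recruited or alternative markers lie between 1.79 and 4.06, Cx3cr1 lies below 0 in both genotypes, and the values are relative to each array's 75th percentile, under spike-in scaling 7 signs in Flox and 1 in GR iKO turn.

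Since Adgre1 is carried by most macrophages, each other gene was also set against it on the same array, which removes any scaling of the array. In Flox, 7 of the 9 genes were higher relative to Adgre1 in all 3 DSS arrays than in all 4 on water. The shift was 2.29 log2 units for Arg1, 1.77 for Marco, 1.56 for Trem2, 1.10 for Msr1, 1.09 for Cd163, 0.92 for Mrc1 and 0.76 for Cd68. Csf1r shifted by 0.04 and Cx3cr1 by -1.64, the latter lower in all 3 DSS arrays. In GR iKO the shifts were 3.32 for Marco, 2.59 for Arg1, 2.24 for Msr1, 1.41 for Cd68, 1.39 for Trem2, 1.14 for Cd163, 0.42 for Csf1r and -1.82 for Cx3cr1, each without overlap. Mrc1 shifted by 0.29 in GR iKO, with 1 of 3 DSS arrays below all 4 on water. An exact permutation test of 3 against 4 arrays cannot go below p = 0.0571, which the genes without overlap reached, so no shift could pass a threshold of 0.05. These shifts show unequal change and not that Adgre1 was stable.

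**Figure D3:**
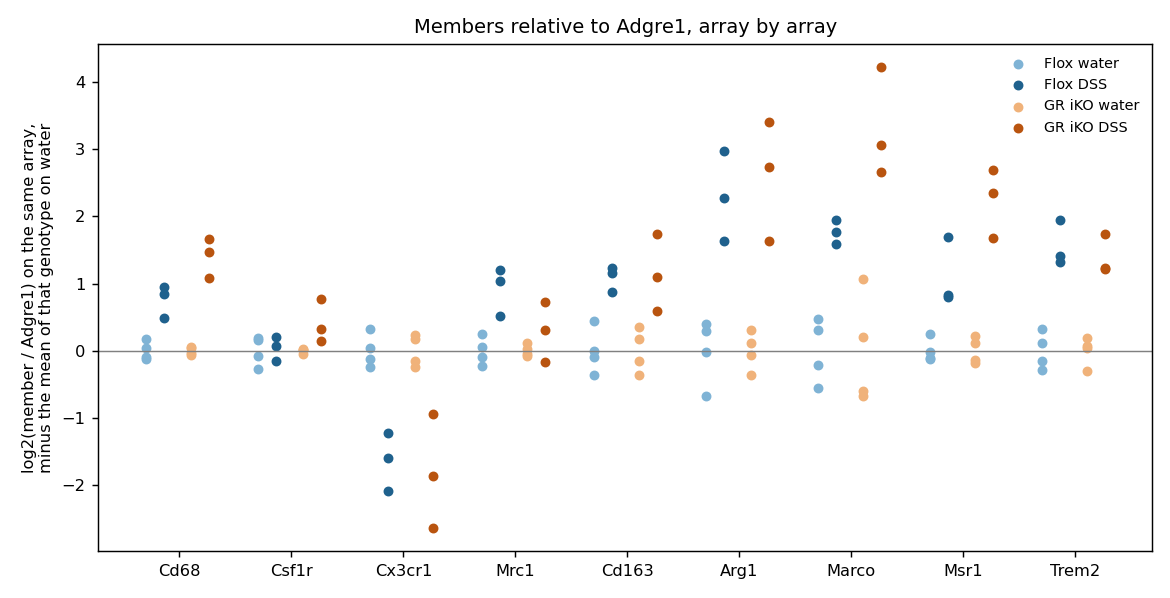
Log2 ratio of each gene to Adgre1 on the same array (vertical axis), minus the mean ratio of that genotype on water, with 1 point per array. Arg1, Marco, Msr1 and Trem2 lie well above 0 in the DSS arrays of both genotypes, Cx3cr1 lies below 0, and Mrc1 lies above all water arrays on DSS in Flox, whereas 1 of 3 GR iKO DSS arrays lies below them.

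On water, deletion of epithelial GR gave no difference that passed the test in any of the 10 genes. None was called, where 0.00339% of all probes (1 probe) was. The same test did not call the deleted gene itself on water (brightest Nr3c1 probe -0.80, limma adjusted p = 0.0968). At an unadjusted p under 0.05, limma gave 278 of the 29523 probes and none of the 10 probes that stand for the genes. Their log2 differences between GR iKO and Flox ran from -0.37 (Msr1) to 0.29 (Arg1), with overlapping arrays for every gene. The dim Csf1r probe differed by -1.23 (unadjusted p = 0.0372) and was not called. The 95% intervals bound what could have been missed. For Adgre1 the interval was -0.70 to 0.47, for Mrc1 -0.39 to 0.63, for Cx3cr1 -1.06 to 0.59 and for Marco -0.77 to 1.01.

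Among DSS-treated mice, Marco was the one member called between genotypes, and only in some of the fits. Its level was higher in GR iKO by 1.73 log2 units (SE 0.47, 95% interval 0.70 to 2.76, 3.32-fold, adjusted p = 0.0337), with all 3 GR iKO arrays above all 3 Flox arrays. Thus 1 of 10 members was called, against 13.2% of all probes in this comparison (3903 of 29523). When the fit held only the 6 DSS arrays, 0% of probes were called (4794 had an unadjusted p under 0.05), and Marco, the 1 of 10 members with an unadjusted p under 0.05 there, had the same difference with an adjusted p of 0.226 (95% interval 0.71 to 2.75). It was called in 16 of 27 alternatives, with values of 1.33 to 2.95, and was not called without any 1 of the 3 Flox DSS arrays (adjusted p = 0.0946, 0.0636 and 0.0579 without replicates 1, 2 and 4) or without GR iKO DSS replicate 1 (0.095) or 3 (0.0706). With slide as a block the difference was 1.83 (adjusted p = 0.0657), and on slides 1 and 4, which carried DSS arrays of both genotypes, it was 2.48 and 1.08. With replicate number as a block it was 1.54 (adjusted p = 0.0829).

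The other 9 members were not called between DSS-treated GR iKO and Flox. Msr1 (0.83, 95% interval -0.17 to 1.82), Arg1 (0.66, -0.46 to 1.77), Cd68 (0.50, -0.14 to 1.14) and Csf1r (0.45, -0.10 to 1.00) had higher means in GR iKO. Mrc1 (-0.46, -1.04 to 0.13), Cx3cr1 (-0.35, -1.30 to 0.60) and Trem2 (-0.18, -0.83 to 0.46) had lower means. Adgre1 (-0.05, -0.73 to 0.62) and Cd163 (-0.07, -0.70 to 0.56) were nearest to 0. The arrays of the 2 genotypes overlapped for all 9 genes. Scaled to spike-ins, where the median of all probes differed by 1.24, all 10 values were above 0, and relative to that median Marco differed by 1.71 and Mrc1 by -0.48.

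**Figure D4:**
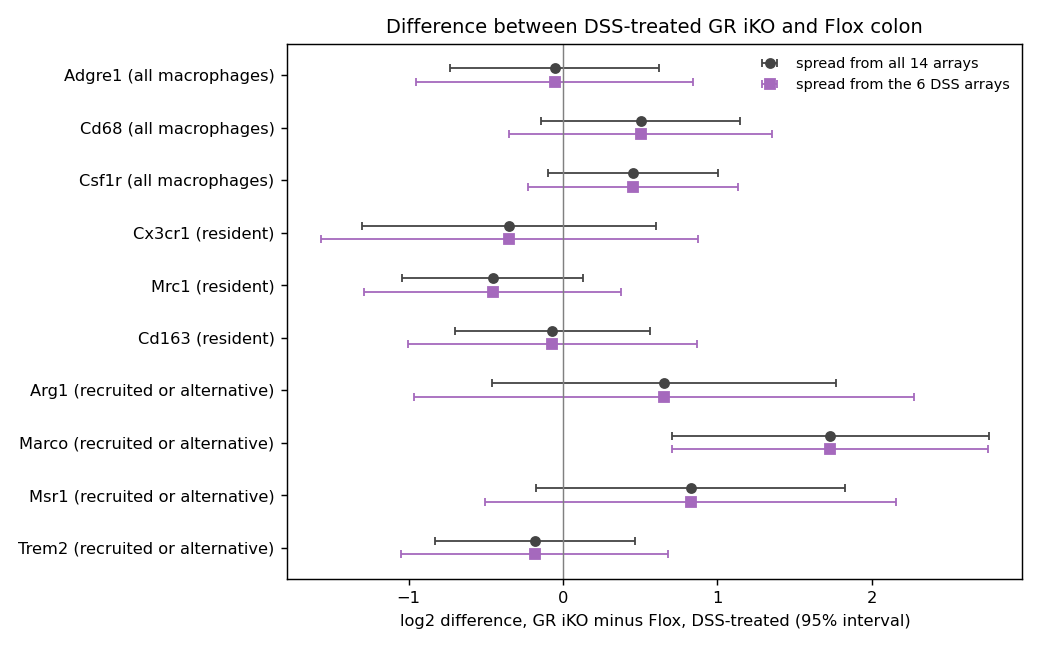
Log2 difference between DSS-treated GR iKO and Flox colon (horizontal axis, GR iKO minus Flox) of each gene, with 95% intervals from the spread of all 14 arrays (circles) and of the 6 DSS arrays alone (squares). The interval of Marco lies above 0 in both, at 1.73, and those of the other 9 genes include 0.

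The DSS response itself was compared between genotypes by the interaction term, the change in GR iKO minus the change in Flox. No member was called by limma, where 0.112% of all probes (33) were. At an unadjusted p under 0.05 there were 1 of 10 members and 5672 of the 29523 probes. Marco had the largest difference (1.61, 95% interval 0.25 to 2.97, adjusted p = 0.189). Msr1 differed by 1.20 (-0.12 to 2.52), Cd68 by 0.71 (-0.14 to 1.56) and Mrc1 by -0.57 (-1.35 to 0.21). For Adgre1 (0.06, -0.83 to 0.96) and Trem2 (-0.10, -0.96 to 0.75) the estimates were near 0, within intervals that still allow a difference of 0.75 or more. Relative to Adgre1 on the same array, Marco was higher in GR iKO on DSS by 1.79, Cd68 by 0.56 and Csf1r by 0.51. Each was without overlap of the 3 against 3 arrays (exact permutation p = 0.1, the smallest possible, and 0.3 after Benjamini-Hochberg adjustment).

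The ligands, adaptors and metabolic partners of the members moved in both directions. Of 14 such genes, 8 were called higher and 1 lower with DSS in Flox, and 11 higher and 1 lower in GR iKO, with median log2 changes of 1.37 and 1.62. Over all tested probes, 24.4% were called higher and 28.2% lower in Flox, and 22% and 22.5% in GR iKO. Under spike-in scaling the counts were 2 higher and 8 lower in Flox, and 7 higher and 2 lower in GR iKO. Of all 29523 probes, 319 were then higher and 25990 lower in Flox, and 1159 and 15250 in GR iKO. Hp, haptoglobin, whose complex with hemoglobin is the ligand of Cd163, rose by 8.19 in Flox and 7.02 in GR iKO. Hmox1, the heme oxygenase that works downstream of that uptake, rose by 2.26 and 3.13. Nos2, which competes with Arg1 for arginine, was on no water array well above background and rose at least 8.67-fold in Flox and at least 19.95-fold in GR iKO (adjusted p = 1.86e-05 and 5.38e-06). Csf1, a ligand of Csf1r, rose by 1.31 and 1.12, and Il34, its other ligand, rose by 1.08 in GR iKO and had a change of 0.38 in Flox that was not called. Cx3cl1, the ligand of Cx3cr1, was not called (-0.27 and 0.18). Tyrobp, the adaptor of Trem2, rose by 1.60 and 2.29, while Hcst, a related adaptor, fell by 1.09 and 0.69 on the log2 scale. Colec12, another scavenger receptor, rose by 2.57 and 2.17. Between DSS-treated genotypes, 13.2% of all probes were called, and 1 of the 14 was. This was the mitochondrial arginase gene Arg2, higher in GR iKO by 1.39 (adjusted p = 0.0146). The count of the 14 was 0 without Flox DSS replicate 2, 2 without Flox water replicate 2, and 4 without Flox DSS replicate 4 or GR iKO DSS replicate 3.

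Among other genes of resident macrophages, 9 of 17 rose with DSS and 2 fell in Flox, and 8 rose and 2 fell in GR iKO, with medians of 1.15 and 0.77. The shares over all tested probes were 24.4% higher and 28.2% lower in Flox, and 22% and 22.5% in GR iKO. Under spike-in scaling 0 were called higher and 11 lower in Flox, and 1 higher and 5 lower in GR iKO. That scaling called 25990 of 29523 probes lower in Flox and 15250 in GR iKO. Siglec1, a sialic acid receptor, rose by 3.49 and 2.62, C1qb, a subunit of complement C1q, by 1.70 and 1.51, and Vsig4, a complement receptor, by 1.87 in Flox. The Vsig4 change in GR iKO, 0.86, was not called. Hpgds, the prostaglandin D synthase of macrophages and mast cells, fell by 1.46 and 1.42. Between DSS-treated genotypes, 1 of the 17 was called higher in GR iKO and 1 lower, where 13.2% of all probes were called. The lower one was Fcrls, by 1.20, and spike-in scaling gave 0.012 for it. When the fit held only the 6 DSS arrays, 0 probes were called. With each array left out, 0 to 4 of the 17 were called. Under spike-in scaling Vsig4, C1qb and Tyrobp had negative changes in Flox.

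Genes of recruited monocytes and of classical activation were called higher in most cases and lower in none, relative to the 75th percentile. Over all tested probes, 24.4% were called higher in Flox and 22% in GR iKO. Spike-in scaling called 319 of the 29523 probes higher and 25990 lower in Flox, and 1159 and 15250 in GR iKO. Of 14 monocyte genes, 12 rose in Flox and 14 in GR iKO, with medians of 2.11 and 2.61, and under spike-in scaling 3 were higher and 4 lower in Flox and 11 higher in GR iKO. Clec4e, a receptor for mycobacterial and damage ligands, rose by 6.11 in Flox and at least 378-fold in GR iKO, where no water array was well above background. Fpr2 and Fpr1, receptors for formyl peptides, rose by 4.54 and 4.24 in Flox and by 6.65 and 6.29 in GR iKO. On water, Clec4e, Fpr2 and Fpr1 were each well above background on 1 of 4 Flox arrays, and Fpr2 and Fpr1 on 1 and 2 of 4 GR iKO arrays, so these changes start from levels mostly not well above background. Of 13 tested genes of classical activation, 12 rose in Flox and 13 in GR iKO, with medians of 2.80 and 5.06 (4.32 in GR iKO with genes below background on water at their lower bound). Under spike-in scaling 6 were higher and 4 lower in Flox, and 10 higher in GR iKO. Il6 rose at least 57.8-fold in Flox and at least 134-fold in GR iKO, and Il1b by 5.49 and 7.76 log2 units. Socs3, a feedback inhibitor of cytokine signalling, rose by 4.53 in Flox, and Cxcl9, a chemokine induced by interferon, by 6.62 in GR iKO. Between DSS-treated genotypes, 6 of the 14 monocyte genes and 10 of the 13 classical genes were higher in GR iKO, among them Clec4e (2.62), Trem1 (2.22), Fpr2 (2.00), Cxcl9 (2.90), Ptgs2 (2.43) and Tnf (2.34), and none was lower, where 1901 of the 29523 probes were called higher. When the fit held only the 6 DSS arrays, 0 of either list were called. Without Flox DSS replicate 2, 0 monocyte and 4 classical genes were called, and the monocyte count was 0 without GR iKO DSS replicate 1 and 2 without GR iKO DSS replicate 4.

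Alternative activation and the lipid-handling program linked to Trem2 moved in both directions. Over all tested probes, 24.4% were called higher and 28.2% lower in Flox, and 22% and 22.5% in GR iKO. Spike-in scaling called 319 of the 29523 probes higher and 25990 lower in Flox, and 1159 and 15250 in GR iKO. Of 14 tested genes of alternative activation, 8 rose and 1 fell in Flox, and 7 rose and 2 fell in GR iKO. Under spike-in scaling 2 were higher and 7 lower in Flox, and the GR iKO counts were 7 and 2. Chil3 and Chil4, chitinase-like proteins, rose most. Chil3 rose by 5.67 and 8.73, and Chil4 at least 9.18-fold and at least 78.6-fold. Irf4, a factor of plasma cells as well as of alternative activation, fell by 3.60 in Flox, and Retnla, a secreted product of alternatively activated cells, fell by 3.96 in GR iKO. On DSS, where 13.2% of probes were called, Chil3 (3.48), Chil4 (3.29) and Irf4 (2.16) were higher and Mgl2 (-1.05) lower in GR iKO. None of the list was called when the fit held only the 6 DSS arrays or without Flox DSS replicate 2, 1 was without GR iKO DSS replicate 1, and 2 were without Flox DSS replicate 1. Of 10 lipid-handling genes, 6 rose and 1 fell in Flox and 6 rose in GR iKO, against 1 higher and 8 lower in Flox and 3 higher and 4 lower in GR iKO under spike-in scaling. Spp1, osteopontin, rose by 5.83 and 4.28, and Gpnmb by 0.96 and 2.12. Lgals3 fell by 1.02 in Flox. Lpl, lipoprotein lipase, was lower in GR iKO on DSS by 1.82, a call lost in the fit of the 6 DSS arrays.

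**Figure D5:**
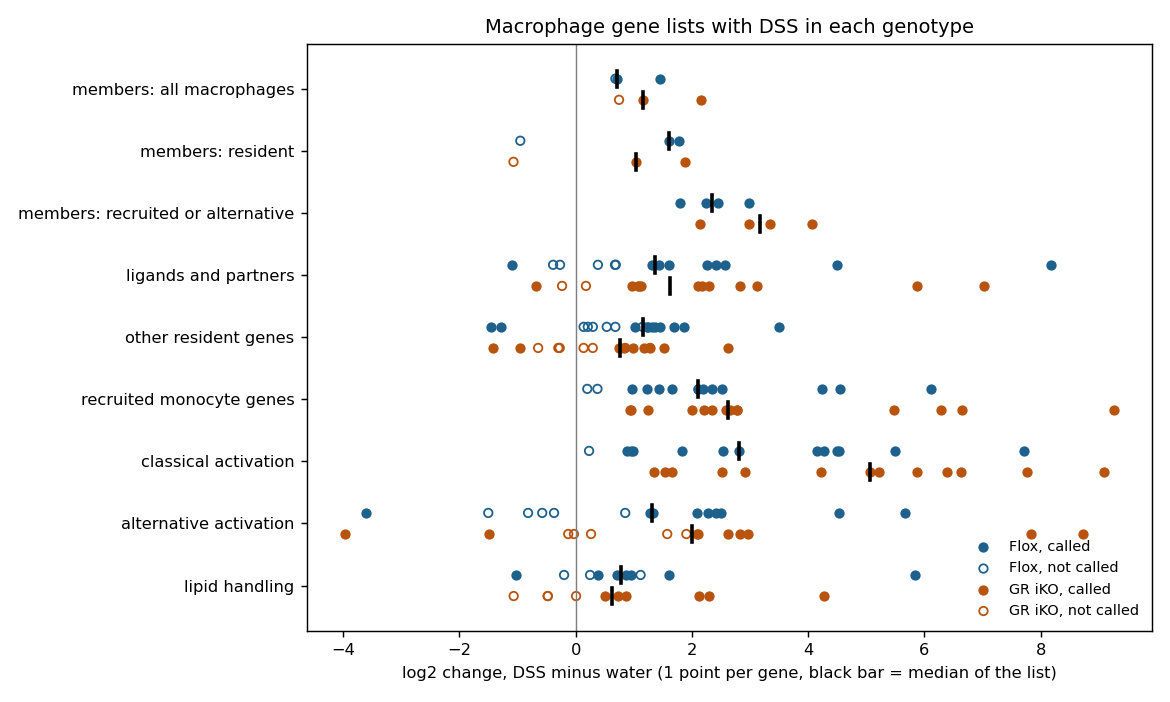
Log2 change with DSS (horizontal axis) of each tested gene in 9 lists, in Flox (blue, upper row of each list) and GR iKO (orange, lower row), filled where called, with a black bar at the list's median. The median of the recruited or alternative members is 2.35 in Flox and 3.16 in GR iKO and that of classical activation 2.80 and 5.06. Values are relative to each array's 75th percentile, and under spike-in scaling the median probe moves by -2.40 and -0.95.

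Cells other than macrophages moved with the same comparisons. The summed level of 8 neutrophil markers, relative to the 75th percentile and on a linear scale, was 0.137 to 0.456 in Flox and 0.192 to 0.572 in GR iKO on water, with 3 of the 8 on no array well above background in either group. On DSS it was 24.4 to 67.3 in Flox and 84.8 to 290.7 in GR iKO. Neutrophils also express Clec4e, Trem1, Fpr1, Fpr2 and Il1b. The sum of 8 smooth muscle markers was 445 to 702 and 420 to 692 on water and 1061 to 1891 in Flox and 359 to 834 in GR iKO on DSS. With DSS, 8 of the 8 were called higher in Flox and 0 in GR iKO, where 24.4% and 22% of all tested probes were. All 8 were called lower in DSS-treated GR iKO than in Flox, where 2002 of 29523 probes were. When the fit held only the 6 DSS arrays, the calls between genotypes were lost, as 0 probes were called. Under spike-in scaling the median of all probes differed by 1.24 between DSS-treated genotypes, and 53 of the 29523 probes were called lower. The sum of 6 B and plasma cell markers was 63.2 to 107.4 over both water groups and 3.36 to 31.8 over both DSS groups. The sum of 4 general leukocyte markers was 11.4 to 13.3 in Flox and 14.8 to 29.3 in GR iKO on DSS. All 7 fibroblast markers were called higher with DSS in both genotypes relative to the 75th percentile (median 1.43 in Flox and 1.00 in GR iKO). Of all tested probes, 24.4% were called higher in Flox and 22% in GR iKO. The fibroblast sum was 104 to 126 on water and 260.0 to 390.3 on DSS in Flox. In GR iKO it was 96.7 to 139 on water and 239.6 to 295 on DSS. The part of these shifts in the members' values was not tested.

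For 4 members, the genes with the most similar profile were found by the root mean square difference of log2 levels over the 14 arrays, after centring each gene on its own mean, among 15464 genes. For Adgre1 they were Lyz2 (0.18), Evi2a (0.20) and Lyz1 (0.22), where Lyz1 and Lyz2 are near-identical lysozyme genes whose probes may share signal. For Mrc1 they were Lyve1 (0.18), Tmem121 (0.20) and Armcx4 (0.22), of which Lyve1 is another marker of resident macrophages and of lymphatic vessels. For Arg1 they were Ms4a6d (0.39), Fcgr1 (0.41) and Ifi204 (0.42). For Marco they were Csf2 (0.58), Slpi (0.63) and Cp (0.63), a looser match than for the others. These are descriptions of 14 arrays in 4 groups, in which genes that respond to DSS by a similar amount are alike.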

How the data were processed

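Total RNA of whole colon from 14 mice was measured on single-colour Agilent arrays. The authors deposited, per the file headers, scanner output of Agilent Feature Extraction 12.0.0.7 as intensity per spot, and a value table on the log2 scale, per the labels made with Partek 6.6. Its log2 values correlated with the log2 processed intensity at 0.9988 or more, and it served as an alternative. Here, spots of a probe were averaged, control spots left out, and log2 processed intensity set relative to each array's 75th percentile. Of 41174 probes, 28223 matched a gene symbol through RefSeq accessions. The 29523 probes well above background on at least 3 arrays were tested with limma 3.58.1 (R 4.3.3), with Benjamini-Hochberg adjustment in each of 5 comparisons, after the fit was tested on simulated data. Exact permutation tests used SciPy 1.17.1. Labels do not state separate litters, so p-values measure the spread between these mice, and the number of arrays limits precision. Each gene was read from its brightest probe on average. From each other list, the 3 called genes with the largest absolute change per comparison were named, and some of their values in other comparisons were added after they were seen. A result that this rule would name is not reported here. The members and lists were chosen with earlier results of these data known. Normexp correction used median spot signals. Alternatives were other normalizations, filters, blocks, weights, moderation and probe summaries, and leaving out each array. Those for the other lists were chosen after seeing the data.

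Within a genotype, DSS and water arrays of the same replicate number shared a slide. The main fit took neither as a pairing. Slide, of which there were 4, and replicate number were each tried as a block.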

Additional observations from a re-analysis of the deposited data

How the results depend on the processing

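Each of the 4 comparisons between groups gave 270 values of the members over 27 alternatives, of which those that kept direction and side of the threshold were 246 for DSS in Flox, 246 in GR iKO, 238 for genotype on DSS and 258 on water. The cause of the changes below was not tested. Under spike-in scaling the DSS change in Flox was -1.63 for Adgre1, -0.87 for Cd68, -1.60 for Csf1r, -0.71 for Mrc1, -0.54 for Cd163, -0.53 for Msr1, -0.075 for Trem2, -0.45 for Vsig4, -0.62 for C1qb and -0.72 for Tyrobp, and in GR iKO -0.18 for Adgre1. The genotype difference on water was then -0.17 for Csf1r, -0.0635 for Mrc1 and -0.057 for Marco, and on DSS 1.16 for Adgre1, 0.87 for Cx3cr1, 0.76 for Mrc1, 1.15 for Cd163, 1.03 for Trem2 and 0.012 for Fcrls. The interaction was 1.28 for Cx3cr1, 0.82 for Mrc1 and 1.29 for Trem2. Spike-in scaling called 3 members in Flox, 6 for genotype on DSS and 4 for the interaction. Of the 29523 probes it called 26309, 21640 and 18554 in these comparisons. The 3 members in Flox, Adgre1, Csf1r and Cx3cr1, were all called lower. For genotype on DSS, 0 members were called without a filter, with slide as a block, with the replicate block, with only the arrays compared, with separate weights and with array weights.

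Averaging a gene's probes gave -0.43 for Csf1r between genotypes on water, and differences from Adgre1 on the same array of -0.69 (Csf1r, Flox), -0.0437 (Csf1r, GR iKO) and -0.12 (Mrc1, GR iKO). Normexp gave 0.0075 for Trem2 between genotypes on water. With slide as a block, Adgre1 differed between genotypes on DSS by 0.0665 and the Cx3cr1 interaction was 0.19. With the replicate block these were 0.14 and 0.0684, and the Trem2 interaction was 0.0046. Array weights gave interactions of -0.11 for Adgre1, -0.32 for Cd163 and -0.12 for Arg1. With each array left out, 7 to 9 members were called in Flox, 8 to 10 in GR iKO and 0 to 1 for genotype on DSS. Ranges for values that changed sign were, for genotype on water, Adgre1 -0.27 to 0.0002, Csf1r -0.15 to 0.14, Marco -0.22 to 0.46, Mrc1 -0.0045 to 0.21, Trem2 -0.25 to 0.0406. For genotype on DSS they were Adgre1 -0.34 to 0.25, Arg1 -0.0427 to 1.31, Cd163 -0.33 to 0.32, Cx3cr1 -0.79 to 0.16, Trem2 -0.51 to 0.0492. For the interaction they were Adgre1 -0.23 to 0.37, Arg1 -0.33 to 1.02, Cd163 -0.15 to 0.50, Cx3cr1 -0.56 to 0.39, Trem2 -0.43 to 0.13.

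Within each genotype, same-numbered DSS and water arrays shared a slide. After removing group means they correlated at -0.0111 to 0.256 in Flox and -0.0197 to 0.184 in GR iKO. Arrays of other numbers correlated at -0.211 to 0.183 and -0.143 to 0.177. The ranges overlapped, and the main fit did not take the numbers as pairs. The replicate block moved probe calls from 15543 to 15241 in Flox, from 13142 to 12609 in GR iKO and from 3903 to 2236 for genotype on DSS. For the latter, slide as a block gave 1612 and separate weights 6 calls. Normexp moved the share of higher calls from 46.36% to 65.04% in Flox and from 48.71% to 33.75% for genotype on DSS. Signal near background limits Arg1 on water and the dim probes.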
